A study of Mus musculus with 18 samples.

Results

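The 50 genes described here carry out DNA replication and cell division. They were taken by symbol, through the GENCODE M21 annotation of the Ensembl IDs, from a table of 11164 mouse genes, and all 50 were found there. RNA had been sequenced from bone-marrow-derived macrophages, the phagocytes that marrow precursors become in culture, of strain C57BL/6J. The cells came from BAFF KO mice, APRIL KO mice and WT mice, where KO marks the loss of BAFF or of APRIL, both cytokines of the tumour necrosis factor family. They were given LPS, the bacterial lipopolysaccharide, at 10 ng/ml for 4 h, or left unstimulated. Every label also carries day 16 of gestation, and the making of the knockout alleles is not described in them. The table held 18 columns, which the labels title as separate replicates but which carry 9 sample numbers, each with 2 index numbers. The 2 columns of a number were treated here as 1 library, which the labels do not say. This gave 2 LPS libraries for each genotype (numbers 17 and 18 in BAFF KO, 20 and 21 in APRIL KO, 14 and 15 in WT) and 1 unstimulated library (16 in BAFF KO, 19 in APRIL KO, 13 in WT). Separate animals or cultures are not named, so a p-value here speaks of the spread among libraries alone, and part or all of it may be technical.

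A dividing cell first licenses its replication origins with the MCM helicase ring, then copies DNA at forks where PCNA clamps the polymerases, fed by nucleotides from ribonucleotide reductase. Cyclins with their kinases drive it on into mitosis, where the spindle checkpoint holds anaphase until every chromosome is attached, and a central spindle then guides cytokinesis. Most of these transcripts are made only in cycling cells: E2F factors switch on the replication genes, and the MuvB complexes act through CHR elements on the mitosis genes. CCAAT boxes often stand in the same promoters. Macrophages grown from marrow divide in culture under macrophage colony-stimulating factor, and LPS is known as a stop signal for that division. In bulk RNA such as this, fewer cells of a type and less RNA per cell cannot be told apart.

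Promoters of 7 members are shown because they carry, or lack, the elements that the mitosis and replication members differed in and because they span the range of responses. They are RefSeq windows of build GRCm38.p6, from 250 bases before to 50 bases after the transcription start, written 5′ to 3′ along the gene. Capitals mark matches on either strand to the CHR element (TTTGAA or TTCGAA), the CCAAT box (CCAAT) or an E2F site. The E2F sites searched were TTTGGCG and its variants, which are TTTCCCG as well as TTTCGCG, and lastly TTTGCCG. On the other strand the CHR reads TTCAAA and the CCAAT box ATTGG. Kif23 (chr9:61946750-61947049, minus strand), Bub1b (chr2:118597961-118598260, plus strand), Cdc20 (chr4:118437294-118437593, minus strand) and Ccnb2 (chr9:70421505-70421804, minus strand) are mitosis genes. Mcm3 (chr1:20820263-20820562, minus strand) and Mcm6 (chr1:128359656-128359955, minus strand) are subunits of one helicase, and Ccne1 (chr7:38107441-38107740, minus strand) encodes a cyclin of S phase entry.
Kif23: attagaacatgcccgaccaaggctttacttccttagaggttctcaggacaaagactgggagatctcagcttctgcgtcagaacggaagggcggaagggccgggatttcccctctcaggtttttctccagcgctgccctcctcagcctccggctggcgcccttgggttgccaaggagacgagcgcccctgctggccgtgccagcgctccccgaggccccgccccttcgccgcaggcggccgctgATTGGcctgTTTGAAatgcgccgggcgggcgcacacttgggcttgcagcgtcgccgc
Bub1b: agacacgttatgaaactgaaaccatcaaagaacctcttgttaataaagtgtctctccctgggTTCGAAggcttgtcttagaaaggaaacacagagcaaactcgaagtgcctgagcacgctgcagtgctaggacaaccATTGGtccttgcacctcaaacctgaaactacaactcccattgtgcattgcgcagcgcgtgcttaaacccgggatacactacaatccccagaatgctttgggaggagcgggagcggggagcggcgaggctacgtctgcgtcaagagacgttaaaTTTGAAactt
Cdc20: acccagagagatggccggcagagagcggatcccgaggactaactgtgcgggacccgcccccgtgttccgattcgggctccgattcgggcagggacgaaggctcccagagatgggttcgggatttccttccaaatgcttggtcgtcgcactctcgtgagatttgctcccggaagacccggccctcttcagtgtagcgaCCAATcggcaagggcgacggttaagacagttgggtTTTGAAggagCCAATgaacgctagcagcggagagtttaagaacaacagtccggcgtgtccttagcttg
Ccnb2: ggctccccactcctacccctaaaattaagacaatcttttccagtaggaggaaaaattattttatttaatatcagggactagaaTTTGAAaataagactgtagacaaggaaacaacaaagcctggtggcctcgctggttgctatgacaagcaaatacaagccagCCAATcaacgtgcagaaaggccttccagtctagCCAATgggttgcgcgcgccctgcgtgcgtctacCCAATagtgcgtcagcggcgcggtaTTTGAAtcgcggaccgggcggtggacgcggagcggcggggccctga
Mcm3: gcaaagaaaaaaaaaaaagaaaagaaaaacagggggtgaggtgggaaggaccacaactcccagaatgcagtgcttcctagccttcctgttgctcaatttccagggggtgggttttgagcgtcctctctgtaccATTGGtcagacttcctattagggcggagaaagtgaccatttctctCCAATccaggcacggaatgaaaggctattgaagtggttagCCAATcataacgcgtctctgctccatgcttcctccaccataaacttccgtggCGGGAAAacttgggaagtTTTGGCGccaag
Mcm6: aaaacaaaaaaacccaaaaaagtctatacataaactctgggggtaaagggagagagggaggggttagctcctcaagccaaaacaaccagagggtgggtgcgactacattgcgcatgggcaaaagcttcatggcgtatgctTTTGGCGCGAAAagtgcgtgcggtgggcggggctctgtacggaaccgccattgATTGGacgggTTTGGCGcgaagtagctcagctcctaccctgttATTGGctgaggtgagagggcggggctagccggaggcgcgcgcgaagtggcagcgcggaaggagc
Ccne1: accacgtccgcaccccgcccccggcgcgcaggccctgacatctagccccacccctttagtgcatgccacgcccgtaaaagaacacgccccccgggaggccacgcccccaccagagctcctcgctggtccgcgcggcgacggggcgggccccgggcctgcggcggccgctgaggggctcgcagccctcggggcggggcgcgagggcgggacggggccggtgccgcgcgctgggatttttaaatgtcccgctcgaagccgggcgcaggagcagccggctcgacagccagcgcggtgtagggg

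In the windows of Kif23, Bub1b, Cdc20 and Ccnb2 at least 1 CHR match and at least 1 CCAAT box were present. The first base of the CHR nearest the start lay at position 3 in Kif23, -18 in Cdc20, 5 in Ccnb2 and 41 in Bub1b, counted from 1 at the first transcribed base and from -1 just before it. The windows of Mcm3 and Mcm6 held no CHR but 2 and 3 E2F matches, of which a pair in Mcm6 overlap by 2 bases, and that of Ccne1 held none of these letters. RefSeq windows were at hand for 41 of the 50 members. Roles in replication are pooled here from the replication fork, nucleotide supply and the control of G1 and S phase, so E2f1 and Ccne1 count among them. A CHR was found in 22 of 28 members with a role in mitosis (78.6%) and in 2 of 13 with a role in replication (15.4%). This compares with 16.9% of the 7717 tested genes that had a window. The 2 replication members were Mcm2 and Mcm7. Both a CHR and a CCAAT box stood in 20 of the 28 mitosis members (71.4%) and in 2 of the 13 replication members, against 7.22% of those genes. CCAAT boxes, with or without a CHR, were common in both, in 22 of 28 and in 9 of 13 members (69.2%), against 42.8%. E2F matches were in 4 of 28 mitosis members (14.3%) and 4 of 13 replication members (30.8%), against 12.8%. A match describes letters and is no sign of binding, and a gene was counted where any of its windows held one, overlapping matches included.

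**Figure D1:**
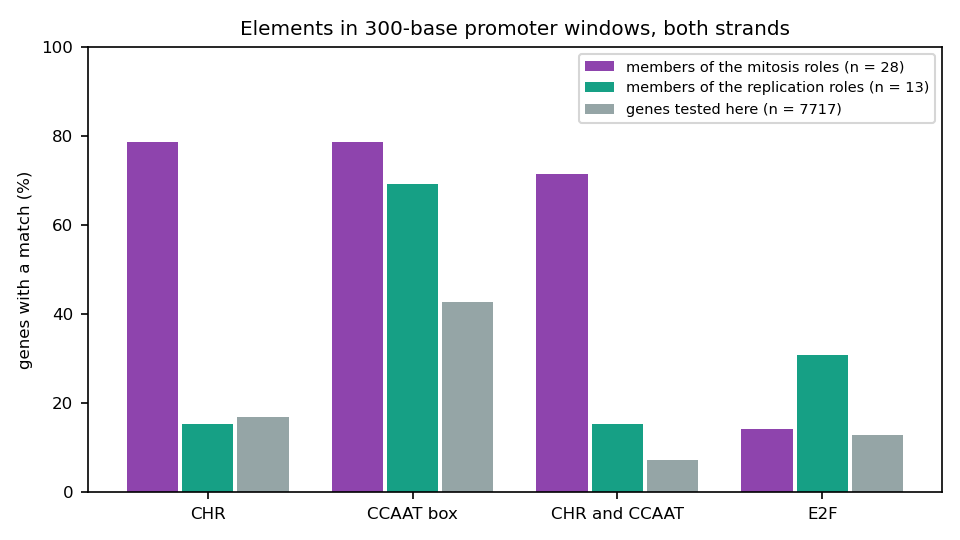
Bars give the percentage of genes whose 300-base promoter window holds each element on either strand. They stand for 28 mitosis members, 13 replication members and the 7717 genes tested that had a window. Replication members here include those of nucleotide supply and of G1 and S phase control. The CHR bar of the mitosis members stands at 78.6%, against 16.9% of the genes tested, while the replication members sit at 15.4%.

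Levels are RPKM, which divide a gene's reads by its length and by all reads of the column, and changes are differences of log2(RPKM + 1). Over the listed genes the libraries held 5121833 to 6020780 reads. RPKM is relative to the total, and under LPS the median change of all 9934 genes tested was -0.44, with 62.1% of them called lower and 18.1% higher by limma at an adjusted p below 0.05. Dividing by median ratio size factors moved that median to -0.01, so each direction below is also given on that scale where it differed. Tnfsf13, which encodes APRIL, had 0 reads in every APRIL KO column, against 10.4 to 44.9 RPKM in WT columns. Tnfsf13b, which encodes BAFF, was not analysed here, so its knockout was not checked by its target. Macrophage markers summed to 4527 to 5211 RPKM in LPS libraries and 6904 to 7603 RPKM in unstimulated ones. Most of that sum was Lyz2, at 2816 to 3649 RPKM with LPS and 4539 to 5272 RPKM without, and single markers went different ways. With LPS Fcgr1 was higher, at 72.0 to 143 RPKM against 22.5 to 25.3 RPKM. Csf1r was lower, at 238 to 257 RPKM against 505 to 615 RPKM, and Adgre1 overlapped, at 432 to 520 RPKM against 423 to 567 RPKM. Of 11 markers of neutrophils and their precursors 10 were lower with LPS, against 62.1% of all genes tested. Their sum was 1351 to 2712 RPKM with LPS and 2751 to 5812 RPKM without. Of 5 tested stem and progenitor markers 3 were lower, near that share, at 4.42 to 8.15 RPKM against 12.99 to 15.95 RPKM summed over 6. Among these 6, Flt3 was at 0.369 to 1.21 RPKM with LPS against 3.98 to 5.36 RPKM without, while Gata2 overlapped. The part of these markers in the falls described below was not tested. The exons of 16 members overlap those of a gene on the other strand in the annotation: Mcm7, Gins2, Pole, Tk1, Ccnd1, Ccne2, Ccna2, Plk1, Cdc20, Ube2c, Cdca8, Kif22, Nusap1, Tacc3, Kif20a and Prc1. Whether counting used strand is unclear from the labels, so reads of these members and of their partners may not be told apart. Skeletal muscle markers summed to 19.4 to 49.1 RPKM in knockout libraries and to 174 to 250 RPKM in WT libraries.

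Most transcripts of the division machinery were at a lower relative level in LPS libraries. Of the 48 members that passed the filter of a mean of 1 RPKM in some group, 43 were lower with LPS averaged over the genotypes and 2 were higher, Ccne1 and Mki67, beside 62.1% and 18.1% of all genes tested. Because most genes fell, size separates the members more clearly. On the log2(RPKM + 1) scale, 32 of the 48 fell at least 2-fold, against 15.6% of all genes. A rise of at least 2-fold was seen in 1, against 8.28%. The median change of the members was -1.28, against -0.44. With median ratio scaling 39 members were lower and 6 higher, against 30.1% and 31.5% of all genes, 16 fell at least 2-fold, against 4.83%, and their median was -0.85. All 6 LPS libraries lay below all 3 unstimulated ones for 41 of the 48, above them for 1 and overlapped them for 6, where 49.0% of all genes tested lay wholly below and 14.2% wholly above. Within the members tested, those with a CHR had a median change of -1.46 (23 members) and those with a window but no CHR -0.89 (17 members). Mki67, with a CHR, was 1 of the 2 higher members, and Ccnb1, without one in its window, was lower. Most members with a CHR have a role in mitosis, and CHR and role were not separated. With an E2F match the median was -1.15 (8 members) and without one -1.30 (32 members). Over the other tested genes the medians with and without a CHR were -0.46 (1278 genes) and -0.45 (6399 genes). With and without an E2F match they were -0.48 (982 genes) and -0.45 (6695 genes).

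**Figure D2:**
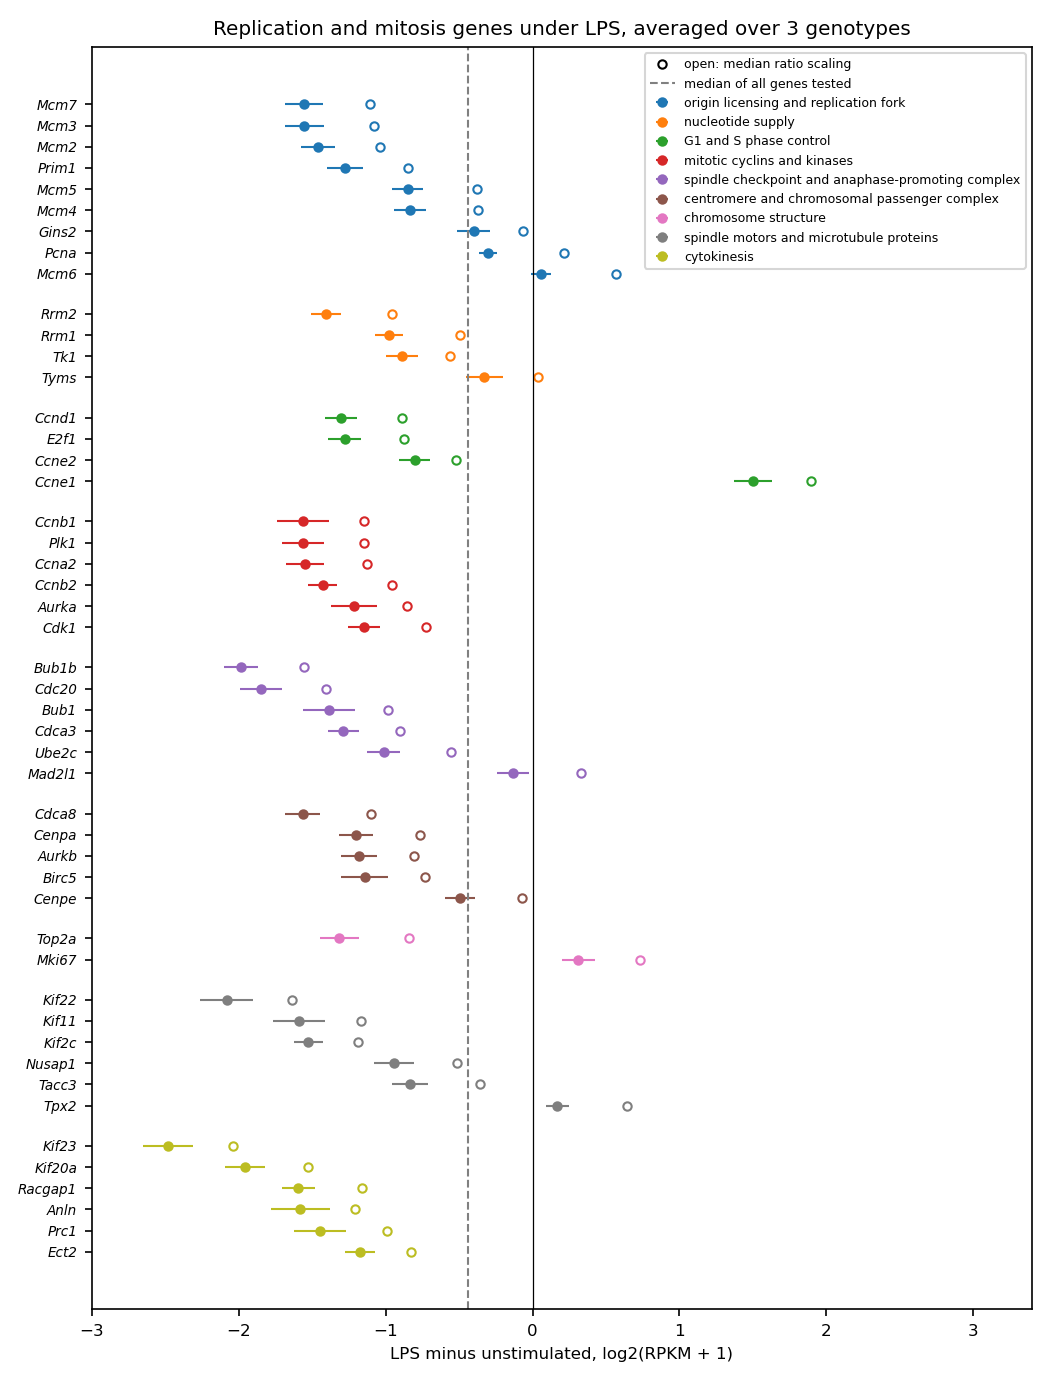
Change with LPS of each of the 48 members tested, LPS minus unstimulated on the log2(RPKM + 1) scale, averaged over 3 genotypes and grouped by role; filled points with SE bars are the deposited scale, open points median ratio scaling. Most filled points lie left of the dashed line at -0.44, the median of all genes tested, and Ccne1 stands alone at the right at 1.5.

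At the replication fork, 8 of 9 tested members were lower with LPS, against 62.1% of all genes tested, with a median of -0.85. Mcm3, Mcm7 and Mcm2, subunits of the helicase ring, fell most. Mcm3 was at 4.05 and 5.57 RPKM in the LPS libraries of BAFF KO, 5.39 and 6.19 RPKM in those of APRIL KO and 6.86 and 5.03 RPKM in those of WT, against 18.04, 19.3 and 16.6 RPKM in the unstimulated BAFF KO, APRIL KO and WT libraries. It was thus lower in every LPS library, at 5.51 ± 0.968 RPKM with LPS (SD, n = 6 libraries) and 17.97 ± 1.35 RPKM without (SD, n = 3), a change of -1.55 (SE 0.13, adjusted p = 2.2e-05). Mcm7, whose exons overlap those of Ap4m1 and Cops6 on the other strand, changed by -1.55, Mcm2 by -1.46 and Prim1, the primase subunit that starts new strands, by -1.28. Mcm5 and Mcm4 changed by -0.85 and -0.83.

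Mcm6, a subunit of that same ring, did not follow. Its level was 66.2 and 58.0 RPKM in the LPS libraries of BAFF KO, 63.3 and 58.6 RPKM in those of APRIL KO and 65.9 and 64.8 RPKM in those of WT, against 56.2, 64.9 and 59.6 RPKM in the unstimulated BAFF KO, APRIL KO and WT libraries. The groups overlapped and the change was 0.06 (SE 0.07, adjusted p = 0.43); with median ratio scaling it was 0.57 and called higher (adjusted p = 0.00027). Mcm6 (chr1:128331590-128359664) was also far more abundant per length than the other 5 MCM subunits, whose means ran from 2.19 RPKM (Mcm2) to 6.70 RPKM (Mcm5) with LPS and from 7.81 RPKM (Mcm2) to 17.97 RPKM (Mcm3) without. Its 8940 reads in all make this one of the best counted members.

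Pcna, the sliding clamp, was the most abundant of the 50, at 191 and 173 RPKM in the LPS libraries of BAFF KO, 134 and 141 RPKM in those of APRIL KO and 162 and 169 RPKM in those of WT, against 228, 168 and 204 RPKM in the unstimulated BAFF KO, APRIL KO and WT libraries. The groups overlapped, since the unstimulated APRIL KO library lay below the BAFF KO LPS libraries, and the averaged change was small, at -0.30 (SE 0.06, adjusted p = 0.002). This direction flipped with median ratio scaling, to 0.21 (adjusted p = 0.022). Named pseudogenes of Pcna exist, so reads may have been split between copies. Gins2, a partner of the helicase, was at 1.13 to 1.73 RPKM in LPS libraries against 2.06 to 2.37 RPKM in unstimulated ones and changed by -0.40 (SE 0.11, adjusted p = 0.011), which median ratio scaling reduced to -0.06. Pole, the catalytic subunit of the leading strand polymerase, did not pass the filter: its 41 reads over 9 libraries gave 0.0391 to 0.17 RPKM with LPS and 0.136 to 0.237 RPKM without, and a change of -0.12 (adjusted p = 0.070) where no filter was set.

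All 4 members of nucleotide supply were lower, against 62.1% of all genes tested, with a median of -0.93. Rrm1, the large subunit of ribonucleotide reductase, was at 9.03 and 9.67 RPKM in the LPS libraries of BAFF KO, 7.45 and 9.38 RPKM in those of APRIL KO and 9.72 and 8.86 RPKM in those of WT, against 16.9, 19.7 and 19.5 RPKM in the unstimulated BAFF KO, APRIL KO and WT libraries. Its level with LPS was thus below every unstimulated value, a change of -0.98 (SE 0.10, adjusted p = 4.8e-05). Rrm2, the small subunit, ranged over 2.68 to 3.92 RPKM in LPS libraries against 9.84 to 11.1 RPKM in unstimulated ones and changed by -1.40. Tk1, thymidine kinase, changed by -0.89. Tyms, thymidylate synthase, at 1.62 to 3.32 RPKM in LPS libraries against 2.78 to 3.01 RPKM in unstimulated ones, changed by only -0.33 (SE 0.13, adjusted p = 0.04); the groups overlapped through a WT LPS library at 3.32 RPKM, and with median ratio scaling the change was 0.040. Leaving out any of libraries 14, 16, 17, 18, 19, 20 or 21 ended the Tyms call, with adjusted p of 0.054 to 0.24, and a pseudogene of Tyms is annotated.

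The controllers of entry into S phase divided. Ccne1 and Ccne2 encode cyclin E1 and cyclin E2, partners of CDK2 at the G1 to S transition. Ccne1 (chr7:38097984-38107534) was at 13.05 and 13.3 RPKM in the LPS libraries of BAFF KO, 6.19 and 9.14 RPKM in those of APRIL KO and 7.29 and 6.98 RPKM in those of WT, against 2.43, 2.25 and 2.88 RPKM in the unstimulated BAFF KO, APRIL KO and WT libraries. Every LPS library was above every unstimulated one, at 9.32 ± 3.13 RPKM with LPS (SD, n = 6 libraries) and 2.52 ± 0.327 RPKM without (SD, n = 3), and the change of 1.5 (SE 0.13, adjusted p = 2.2e-05) was the largest rise of the 48. Ccne2, with 0.406 to 0.655 RPKM in LPS libraries against 1.35 to 2.09 RPKM in unstimulated ones, went the other way, by -0.80 (SE 0.11, adjusted p = 0.00022). Ccnd1, cyclin D1, which answers growth factor signals, changed by -1.30 and E2f1, the activator of replication genes, by -1.28. Over all libraries Ccne1 had 940 reads and Ccne2 157.

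All 6 mitotic cyclins and kinases were lower, against 62.1% of all genes tested, with a median of -1.49. Ccnb2, a B-type cyclin that partners CDK1, was at 5.06 and 4.27 RPKM in the LPS libraries of BAFF KO, 6.19 and 6.51 RPKM in those of APRIL KO and 6.57 and 5.69 RPKM in those of WT, against 18.1, 15.8 and 16.9 RPKM in the unstimulated BAFF KO, APRIL KO and WT libraries. The groups lay far apart, at 5.72 ± 0.909 RPKM with LPS (SD, n = 6 libraries) and 16.96 ± 1.18 RPKM without (SD, n = 3), a change of -1.43 (SE 0.10, adjusted p = 6.9e-06). The other B-type cyclin, Ccnb1, changed by -1.56, and Ccna2, cyclin A2, by -1.55. Plk1 and Aurka, kinases of centrosome maturation and spindle assembly, changed by -1.56 and -1.21, and Cdk1, the mitotic kinase itself, by -1.15. Pseudogenes of both B-type cyclins are annotated, and exons of Ccna2 and Plk1 overlap genes on the other strand, so their values carry that uncertainty.

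**Figure D3:**
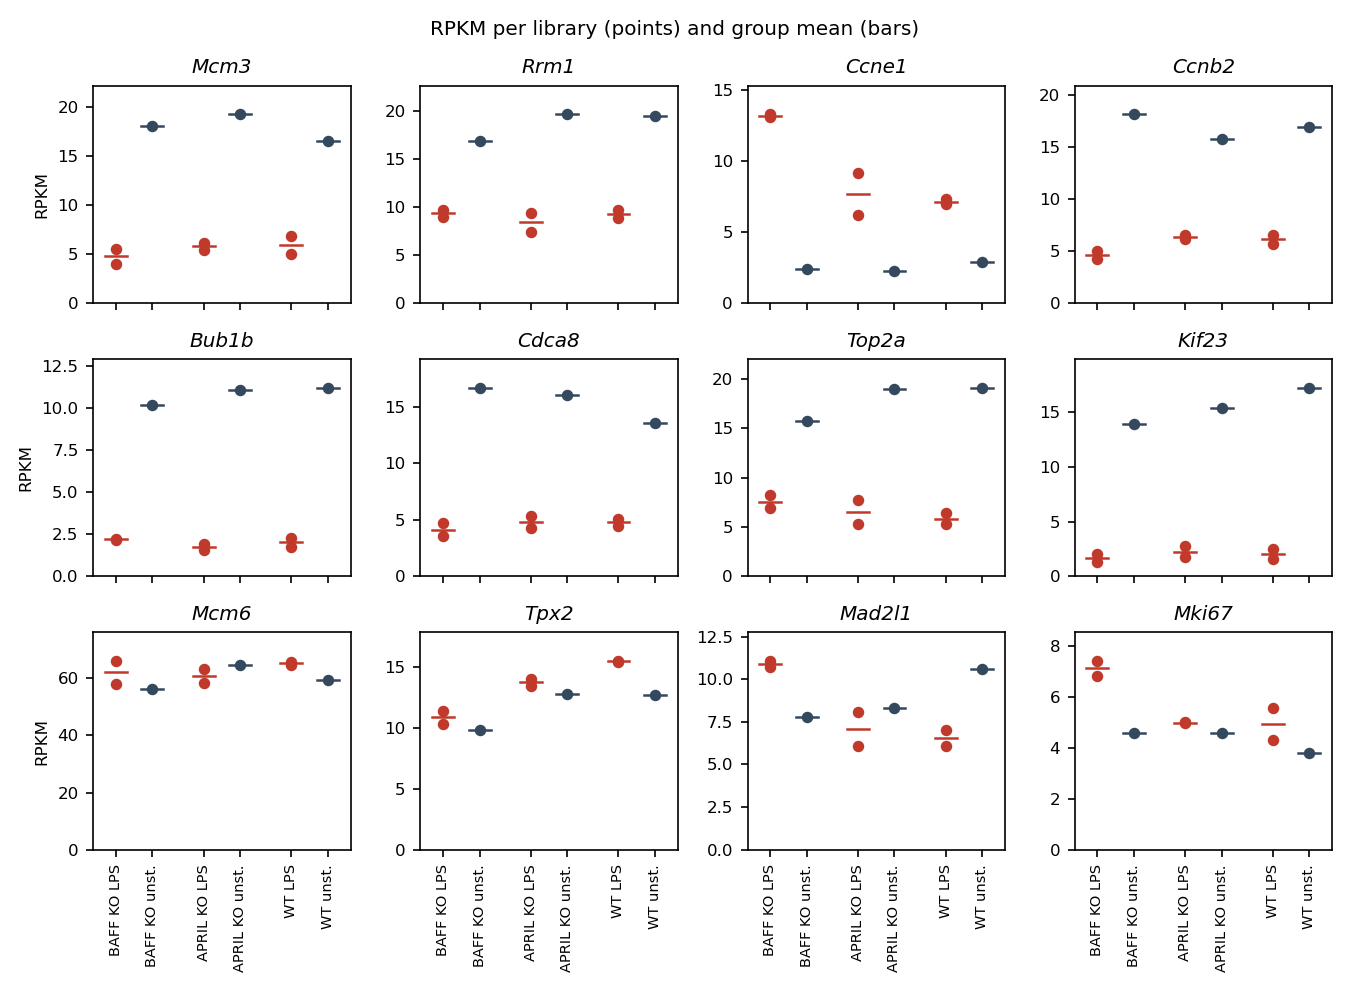
RPKM of 12 members in each library (points) and the mean of each group (bars), with LPS in red left of unstimulated in blue for BAFF KO, APRIL KO and WT. In Mcm3, Rrm1, Ccnb2, Bub1b, Cdca8, Top2a and Kif23 every LPS point lies below every unstimulated point, Ccne1 shows the opposite, and Mcm6, Tpx2 and Mad2l1 overlap.

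Of the spindle checkpoint and the anaphase-promoting complex, 5 of 6 members were lower, against 62.1% of all genes tested. Bub1b, which encodes the checkpoint protein BubR1, was at 2.25 and 2.16 RPKM in the LPS libraries of BAFF KO, 1.58 and 1.90 RPKM in those of APRIL KO and 2.30 and 1.75 RPKM in those of WT, against 10.2, 11.1 and 11.2 RPKM in the unstimulated BAFF KO, APRIL KO and WT libraries. That is 1.99 ± 0.292 RPKM with LPS (SD, n = 6 libraries) and 10.8 ± 0.563 RPKM without (SD, n = 3), or 18.4% of the unstimulated level, a change of -1.99 (SE 0.11, adjusted p = 2.8e-06). Cdc20, which activates the anaphase-promoting complex, was at 1.94 and 2.04 RPKM in the LPS libraries of BAFF KO, 2.48 and 3.08 RPKM in those of APRIL KO and 3.74 and 2.23 RPKM in those of WT, against 11.6, 11.7 and 11.9 RPKM in the unstimulated BAFF KO, APRIL KO and WT libraries. The change was -1.85 (SE 0.15, adjusted p = 1.4e-05), with an SD of 0.192 RPKM over the 3 unstimulated libraries; its exons overlap those of Elovl1 on the other strand. Bub1, Cdca3 and Ube2c, the last being the ubiquitin-conjugating enzyme of that complex, changed by -1.38, -1.29 and -1.01; exons of Ube2c overlap those of Tnnc2, a troponin gene of skeletal muscle, on the other strand.

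Mad2l1 encodes MAD2, the checkpoint protein that binds and holds Cdc20. It was at 11.1 and 10.7 RPKM in the LPS libraries of BAFF KO, 6.06 and 8.05 RPKM in those of APRIL KO and 6.07 and 7.03 RPKM in those of WT, against 7.77, 8.31 and 10.6 RPKM in the unstimulated BAFF KO, APRIL KO and WT libraries. The groups overlapped because the BAFF KO libraries were higher with LPS while the WT libraries were lower. The averaged change was -0.13 (SE 0.11, adjusted p = 0.29), and the direction flipped with median ratio scaling to 0.33 (adjusted p = 0.031).

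All 5 tested members of the centromere and the chromosomal passenger complex were lower, against 62.1% of all genes tested. Cdca8, which encodes borealin of that complex, was at 4.73 and 3.56 RPKM in the LPS libraries of BAFF KO, 4.26 and 5.35 RPKM in those of APRIL KO and 5.08 and 4.49 RPKM in those of WT, against 16.7, 16.1 and 13.6 RPKM in the unstimulated BAFF KO, APRIL KO and WT libraries. No LPS library reached an unstimulated one, and the change was -1.56 (SE 0.12, adjusted p = 1.3e-05); its exons overlap those of 9930104L06Rik on the other strand. Its partners Aurkb, the Aurora B kinase, and Birc5, survivin, changed by -1.18 and -1.14, and Cenpa, the histone H3 variant of centromeres, by -1.2. Cenpe, a kinetochore motor, was at 3.15 to 4.10 RPKM in LPS libraries against 4.37 to 6.09 RPKM in unstimulated ones, a smaller change of -0.49 (SE 0.10, adjusted p = 0.0026) that was -0.07 with median ratio scaling. Cenpf, a large kinetochore protein, stayed below the filter, with 107 reads in all, and was at 0.0384 to 0.0889 RPKM with LPS and 0.485 to 0.62 RPKM without. Its reads number 1 to 3 in each LPS library and 26 to 38 in each unstimulated one, and with no filter set it was called lower, by -0.53 (adjusted p = 0.00013).

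Top2a, the topoisomerase that untangles sister chromatids, was the best expressed chromosome gene. It was at 6.89 and 8.26 RPKM in the LPS libraries of BAFF KO, 5.32 and 7.77 RPKM in those of APRIL KO and 6.396 and 5.30 RPKM in those of WT, against 15.7, 18.9 and 19.1 RPKM in the unstimulated BAFF KO, APRIL KO and WT libraries, a change of -1.32 (SE 0.13, adjusted p = 5e-05) resting on 5224 reads. Mki67, the gene of the proliferation marker Ki-67 that coats mitotic chromosomes, moved the other way. It was at 7.41 and 6.82 RPKM in the LPS libraries of BAFF KO, 4.95 and 5.01 RPKM in those of APRIL KO and 5.57 and 4.29 RPKM in those of WT, against 4.58, 4.59 and 3.80 RPKM in the unstimulated BAFF KO, APRIL KO and WT libraries. The LPS range began below the highest unstimulated value, and the change of 0.31 (SE 0.11, adjusted p = 0.032) was past the threshold by little; without any of libraries 13, 14, 16, 17, 20 or 21 the adjusted p was between 0.055 and 0.22. With median ratio scaling it was 0.73.

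Of the spindle motors and microtubule proteins, 5 of 6 were lower, against 62.1% of all genes tested. Kif22, a chromosome-binding kinesin, was at 2.60 and 4.22 RPKM in the LPS libraries of BAFF KO, 1.35 and 2.22 RPKM in those of APRIL KO and 2.73 and 1.66 RPKM in those of WT, against 15.4, 12.1 and 12.3 RPKM in the unstimulated BAFF KO, APRIL KO and WT libraries, a change of -2.08 (SE 0.18, adjusted p = 2.5e-05). A pseudogene of Kif22 is annotated, so the value is uncertain by what that copy took. Kif11, the motor that pushes the spindle poles apart, and Kif2c, which takes microtubules down, changed by -1.59 and -1.53. Nusap1 and Tacc3, both spindle microtubule proteins, changed by -0.94 and -0.83. Tpx2, the spindle assembly factor that activates Aurora A, was instead at 11.4 and 10.3 RPKM in the LPS libraries of BAFF KO, 13.5 and 14.04 RPKM in those of APRIL KO and 15.5 and 15.4 RPKM in those of WT, against 9.78, 12.8 and 12.7 RPKM in the unstimulated BAFF KO, APRIL KO and WT libraries. The groups overlapped, the change was 0.17 (SE 0.08, adjusted p = 0.08), and with median ratio scaling it was 0.64 and called higher.

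Cytokinesis held the largest single fall and the lowest median of the 9 roles, at -1.59. All 6 of its members were lower, against 62.1% of all genes tested. Kif23 (chr9:61915905-61946774), the motor of the centralspindlin complex that bundles the central spindle, was at 1.29 and 2.09 RPKM in the LPS libraries of BAFF KO, 1.74 and 2.75 RPKM in those of APRIL KO and 1.55 and 2.48 RPKM in those of WT, against 13.9, 15.4 and 17.2 RPKM in the unstimulated BAFF KO, APRIL KO and WT libraries. Levels with LPS were 12.8% of those without, at 1.98 ± 0.559 RPKM with LPS (SD, n = 6 libraries) and 15.5 ± 1.69 RPKM without (SD, n = 3), and the change of -2.48 (SE 0.17, adjusted p = 6.8e-06) was the largest fall of the 48. Racgap1, its partner in centralspindlin, was at 1.67 to 2.88 RPKM in LPS libraries against 7.81 to 9.90 RPKM in unstimulated ones and changed by -1.59. Kif20a, the kinesin that brings the passenger complex to the midzone, was at 1.64 and 1.70 RPKM in the LPS libraries of BAFF KO, 1.52 and 1.87 RPKM in those of APRIL KO and 2.82 and 1.70 RPKM in those of WT, against 9.22, 9.46 and 11.6 RPKM in the unstimulated BAFF KO, APRIL KO and WT libraries, a change of -1.96 (SE 0.14, adjusted p = 8.3e-06); its exons overlap those of Cdc23 on the other strand. Anln, which ties the contractile ring to the membrane, Prc1, which crosslinks the midzone, and Ect2, which activates RhoA there, changed by -1.58, -1.45 and -1.17.

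Summed as reads recovered from the same RPKM values, the members were also lower with LPS, which is no independent view. Of every 1000000 reads over the listed genes, the 50 members took 1035 to 1258 in LPS libraries and 2070 to 2237 in unstimulated ones. Pcna and Mcm6 alone supplied a large part of these reads, and without them the other 48 took 534 to 661 with LPS, against 1382 to 1567 without. The exact 95% interval of the lowest unstimulated library, from 1352 to 1412, lies above that of the highest LPS library, from 640.2 to 681; these intervals cover counting error only.

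**Figure D4:**
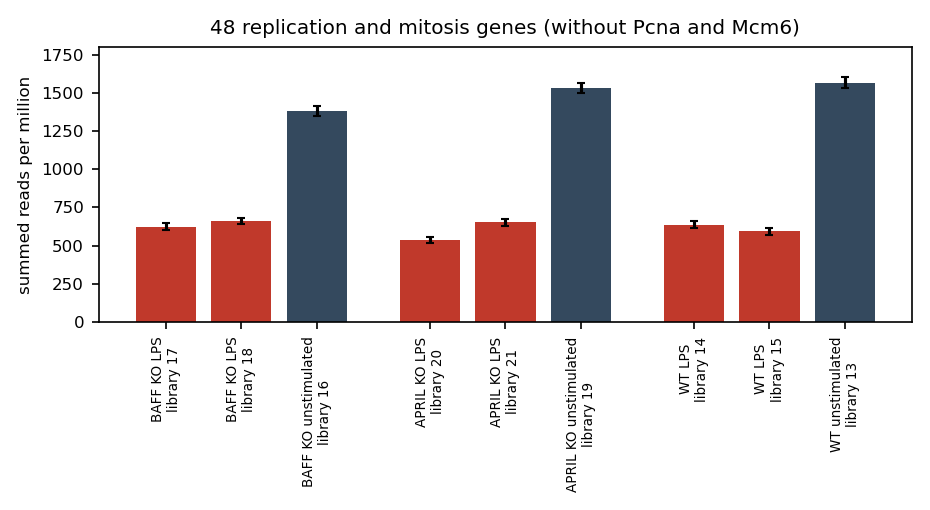
Summed reads of 48 members per 1000000 reads over the listed genes, leaving out Pcna and Mcm6, in each of the 9 libraries. LPS is in red left of unstimulated in blue within each genotype. Error bars are exact 95% intervals of the counts. LPS libraries lie between 534 and 661 and unstimulated ones between 1382 and 1567 in all 3 genotypes.

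The falls recurred in each genotype on the deposited scale. With 2 LPS libraries against 1 unstimulated library, 39 of 48 members were lower in BAFF KO, against 43.8% of all genes tested, 41 in APRIL KO, against 47.8%, and 41 in WT, against 46.7%. In BAFF KO 2 members were higher, against 16.0% of genes, with 1 in APRIL KO, against 14.4%, and 1 in WT, against 13.7%; 38 members were lower in all 3 genotypes, against 30.4% of genes. With median ratio scaling 5 members were higher in BAFF KO, against 23.5% of genes, 3 in APRIL KO, against 24.2%, and 4 in WT, against 23.5%. On the deposited scale Ccne1 was the member higher in every one, which Mcm6 and Tpx2 joined with median ratio scaling; Ccne1 changed by 2.04 in BAFF KO, 1.39 in APRIL KO and 1.07 in WT. Kif23 was the largest fall in each, at -2.48, -2.36 and -2.61 in that order. Among the next 4 falls were Kif22, Kif20a and Bub1b in all 3, with Cdc20 in BAFF KO (-2.07), Plk1 in APRIL KO (-1.92) and Anln in WT (-1.98). Mki67 was called only in BAFF KO, by 0.54 (SE 0.19, adjusted p = 0.042), against changes of 0.10 in APRIL KO and 0.30 in WT that did not pass; the difference between the genotypes did not pass a test either. A lone unstimulated library per genotype is assumed by the fit to vary like the other groups.

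BAFF KO differed from WT under LPS in 4 of the 48 members, or 2 higher and 2 lower, where 8.34% of all genes were called in either direction. The share is thus near that of the genes at large, and 9 of the 48 had an unadjusted p below 0.05, against 25.2% of all genes. Ccne1 was higher in BAFF KO, at 13.05 and 13.3 RPKM, against 7.29 and 6.98 RPKM in WT, by 0.80 (SE 0.18, adjusted p = 0.038). Mad2l1 was higher, at 11.1 and 10.7 RPKM in BAFF KO, against 6.07 and 7.03 RPKM in WT, by 0.66 (SE 0.16, adjusted p = 0.044). Ccnd1 was lower, at 1.27 and 1.38 RPKM in BAFF KO, against 2.37 and 2.77 RPKM in WT, by -0.62 (SE 0.15, adjusted p = 0.046), and is among the members whose exons overlap a gene on the other strand. Tpx2 was lower, at 11.4 and 10.3 RPKM in BAFF KO, against 15.5 and 15.4 RPKM in WT, by -0.47 (SE 0.11, adjusted p = 0.042). In all 4 the library pairs stood apart without overlap, and all 4 calls were lost when any of libraries 14, 15, 17 or 18 was left out, with adjusted p of 0.099 to 0.20, or with the replicate order as a block, with adjusted p of 0.055 to 0.078. Those of Ccnd1 and Tpx2 were also lost without library 20 or 21, with adjusted p of 0.074 to 0.077. The other 44 members lay between -0.55 and 0.58, with SE from 0.08 to 0.28 over the 48. Neutrophil and precursor markers were higher in BAFF KO LPS libraries in 7 of 11 cases and skeletal muscle markers lower in 7 of 8; their part in these differences was not tested.

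**Figure D5:**
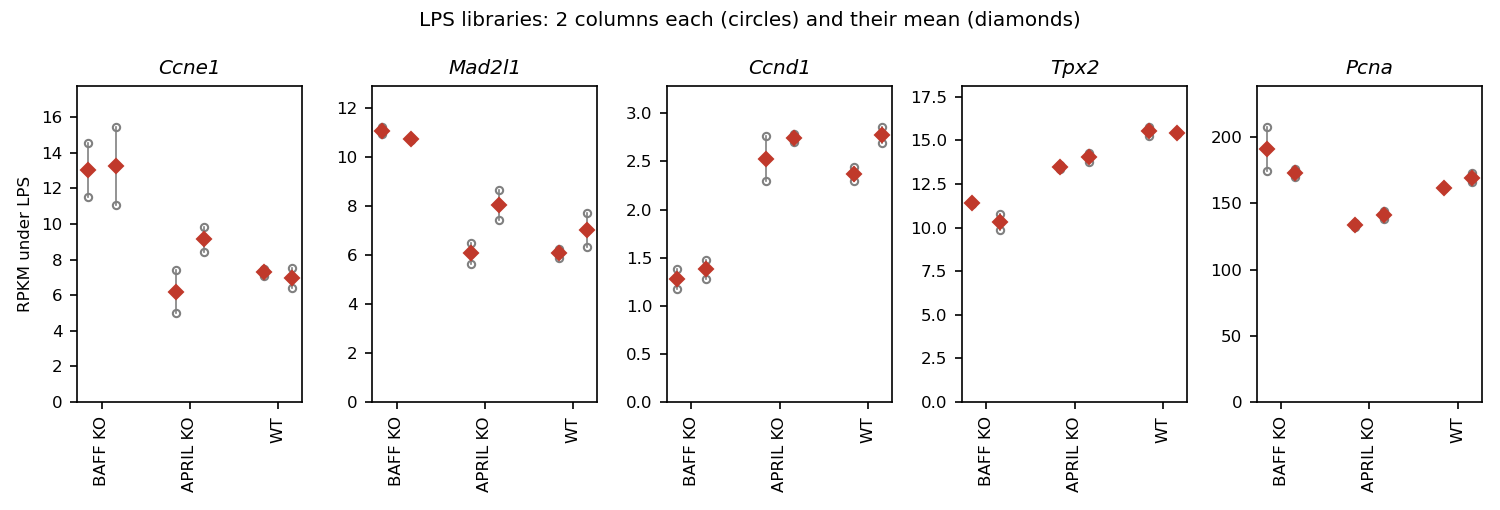
RPKM under LPS of the 5 members called between genotypes, for BAFF KO, APRIL KO and WT, with the 2 columns of each library as circles and their mean as a diamond. Ccne1 and Mad2l1 are highest in BAFF KO, Ccnd1 and Tpx2 lowest there, and Pcna is lowest in APRIL KO.

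APRIL KO differed from WT under LPS in none of the 48 by limma, against 0.211% of all genes, and 4 had an unadjusted p below 0.05, against 15.5% of all genes. The changes lay between -0.52 and 0.33, with a median of -0.02. The smallest p were those of Pcna, at 134 and 141 RPKM in APRIL KO, against 162 and 169 RPKM in WT, a difference of -0.27 (SE 0.08, adjusted p = 0.23), and Tacc3, at 5.72 and 8.29 RPKM in APRIL KO, against 9.86 and 10.8 RPKM in WT, a difference of -0.52 (SE 0.17, adjusted p = 0.24). Between the knockouts, 1 member was called, against 5.54% of all genes. Pcna was at 191 and 173 RPKM in BAFF KO, against the APRIL KO values above, and higher by 0.40 (SE 0.08, adjusted p = 0.037); with median ratio scaling the adjusted p was 0.054, and Ccnd1, at -0.64 (adjusted p = 0.051), passed in its place at 0.045. Leaving out any of the 6 LPS libraries (14, 15, 17, 18, 20 or 21) ended the Pcna call, with adjusted p of 0.060 to 0.20, as did the block (adjusted p = 0.080). In the same comparison 6 of 11 markers of neutrophils and their precursors were higher and 2 of 4 B cell markers lower; their part in the Pcna difference was not tested. These comparisons share libraries and are no independent views of a genotype.

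Whether the knockouts changed the response to LPS was tested as an interaction. None of the 48 passed for BAFF KO, against 0.443% of all genes, nor for APRIL KO, against 0.0%. By unadjusted p below 0.05 there were 2 for BAFF KO, against 21.6% of all genes, and 0 for APRIL KO, against 3.39%, and the SE of these differences ran from 0.15 to 0.49. For BAFF KO the smallest p were those of Mad2l1, at 1.07 (SE 0.27, adjusted p = 0.1), and Ccne1, at 0.98 (SE 0.31, adjusted p = 0.14). For APRIL KO they were those of Tacc3, at -0.61 (SE 0.30, adjusted p = 0.998), and Ect2, at 0.49 (SE 0.25, adjusted p = 0.998).

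Without LPS each genotype had 1 library, so values carry no test. They were called past 1.5-fold, on the log2(RPKM + 1) scale, only where both columns of the knockout lay beyond both of WT. In BAFF KO 2 members were lower and 0 higher, against 6.79% and 2.92% of all genes. Ccnd1 was at 3.91 and 4.41 RPKM in the BAFF KO columns, against 6.52 and 7.34 RPKM in WT, and Anln at 2.97 and 3.80 RPKM in BAFF KO, against 6.21 and 7.51 RPKM in WT. In APRIL KO 0 were lower and 0 higher, against 3.3% and 1.75%. The medians of the members were -0.13 in BAFF KO and -0.02 in APRIL KO, close to -0.07 and 0.02 over all genes.

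Other genes of the cell cycle, from lists chosen with earlier results of these data known, were for the most part lower as well. With LPS 31 of 35 further replication genes were lower and 3 higher, beside the 62.1% and 18.1% of all genes. Gmnn, which encodes geminin, the inhibitor of licensing, was at 1.76 to 3.25 RPKM in LPS libraries against 19.8 to 24.4 RPKM in unstimulated ones (-2.66), Dnmt1, the maintenance DNA methyltransferase, at 4.09 to 7.16 RPKM in LPS libraries against 34.6 to 45.9 RPKM in unstimulated ones (-2.58) and Pole2, a polymerase epsilon subunit, at 1.205 to 2.46 RPKM in LPS libraries against 6.52 to 12.2 RPKM in unstimulated ones (-1.91). The rises were those of Rfc3, a clamp loader subunit (1.10), Timeless, of the fork protection complex (0.61), and Mcm10, a helicase activator (0.37). Of 53 further mitosis genes 49 were lower and 2 higher. The largest falls were those of Cdc25b, a phosphatase that activates CDK1 (-1.98), Ncapd2, of condensin (-1.84), and Ndc80, of the kinetochore (-1.74). Pttg1, which encodes securin, was at 70.7 to 109 RPKM in LPS libraries against 14.6 to 31.7 RPKM in unstimulated ones (1.99), with Trip13, an ATPase that remodels MAD2, at 4.17 to 7.60 RPKM in LPS libraries against 3.36 to 3.55 RPKM in unstimulated ones (0.68). With median ratio scaling 23 of 33 replication genes and 34 of 52 mitosis genes were lower and 3 of each higher, against 30.1% and 31.5% of all genes.

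Brakes of the cycle and genes of G1 entry moved in both directions. Of 25 brakes 7 were higher and 12 lower with LPS, where 18.1% and 62.1% of all genes were, or 11 higher and 5 lower with median ratio scaling, where 31.5% and 30.1% of all genes were. Mxd1, an antagonist of MYC, was at 32.1 to 41.2 RPKM in LPS libraries against 4.26 to 5.43 RPKM in unstimulated ones (2.70), Cdkn1a, which encodes the CDK inhibitor p21, at 107 to 163 RPKM in LPS libraries against 17.7 to 24.5 RPKM in unstimulated ones (2.67) and Gadd45b, a stress-induced gene, at 389 to 583 RPKM in LPS libraries against 80.8 to 112 RPKM in unstimulated ones (2.37). Sesn1 (-3.14) and Gadd45a (-1.57), both known as p53 targets, and Rb1, the retinoblastoma gene (-1.18), were the largest falls. Of 14 G1 entry genes 11 were lower and 2 higher, or 8 and 2 with median ratio scaling, beside the same shares of all genes. Ccnd2, cyclin D2, was at 4.83 to 14.2 RPKM in LPS libraries against 0.206 to 0.649 RPKM in unstimulated ones (2.86) and Cdk6, a kinase of the D-type cyclins, at 8.20 to 11.7 RPKM in LPS libraries against 3.48 to 5.07 RPKM in unstimulated ones (1.13), while Cdk2 (-1.76), the partner of cyclin E, Cdk4 (-1.52) and Csf1r, the receptor for macrophage colony-stimulating factor (-1.18), were lower.

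Between genotypes under LPS, 7 of the 127 genes tested in these 4 lists were called in BAFF KO against WT, a share of 5.51%, against 8.34% of all genes. BAFF KO was higher than WT in Wee1, the kinase that restrains CDK1, at 10.3 and 12.5 RPKM, against 2.88 and 2.66 RPKM (1.71 (SE 0.18, adjusted p = 0.0021)), and in Ccng2, an atypical cyclin (0.74). It was also higher in Ncapg2, of condensin II (0.93), Cdc45, of the replicative helicase (0.66), and Dnmt1 (0.61). Ccnd2 was lower, at 4.91 and 4.83 RPKM in BAFF KO, against 12.1 and 11.5 RPKM in WT (-1.12 (SE 0.15, adjusted p = 0.0052)), as was Gadd45a (-0.86). Against APRIL KO 3 of the 127 were called in BAFF KO, against 5.54% of all genes, namely Wee1, Ccng2 and Ccnd2, by 1.24, 0.65 and -1.28. APRIL KO against WT gave 0 calls in the 4 lists by limma.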

How the data were processed

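RNA of 9 libraries, as grouped here, was sequenced as single reads of 85 bp, per the labels' protocols, and the submitters' processing notes name STAR and mm10. The labels name both a directional and a TruSeq kit, so strandedness is unclear; for counter and annotation, none is given in the sources used here. RPKM per gene were deposited by the authors in 18 columns. Whole reads were recovered for 100% of the 11164 genes within 0.01 reads: each count had been raised by 1 read, while a count of 0 was set to a floor worth 1 read at a depth of 2636926, so low levels are overstated. Columns held 1649338 to 1942218 reads (lower index) or 3472495 to 4078562 (higher index); the 2 columns of a library were averaged. Counts of the 2 columns of a library agreed to a mean chi-square of 1.56 to 2.03 per gene, against 5.56 to 7.05 between the 2 libraries of a group, so they were taken as 1 library.

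The 9934 genes whose mean reached 1 RPKM in some group were put on the log2(RPKM + 1) scale, where the pseudocount understates changes of low genes. They were fitted in limma 3.58.1 under R 4.3.3 (3 residual degrees of freedom, eBayes with a trend, 2-sided; Benjamini-Hochberg adjusted p below 0.05 over all genes tested; 9 comparisons), with a script tested on simulated data. Other settings tried were no filter, a pseudocount of 0.1, scaling by median ratios, each index column alone, each library left out and the order of LPS libraries as a block. Members, lists and tests were chosen with earlier results of these data known. Named are the best expressed member per role, up to 5 rises and 5 falls per comparison (or the 2 smallest p), and 3 of each per further list; Mcm3, Bub1b, Mcm6 and other exceptions were added after their values were seen. All 50 are accounted for.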

Additional observations from a re-analysis of the deposited data

Results flagged for a closer look

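Mad2l1 stood out because BAFF KO and WT went opposite ways. APRIL KO went as WT did, at 6.06 and 8.05 RPKM with LPS against 8.31 RPKM without. Each unstimulated value rests on 1 library. Both BAFF KO LPS libraries, at 11.1 and 10.7 RPKM, were above the unstimulated BAFF KO library at 7.77 RPKM, while both WT LPS libraries, at 6.07 and 7.03 RPKM, were below the unstimulated WT library at 10.6 RPKM. The difference between the responses was 1.07 (SE 0.27, adjusted p = 0.1) and did not pass limma's test over all genes.

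Mcm6 showed the same kind of split at a far smaller size. Both APRIL KO LPS libraries, at 63.3 and 58.6 RPKM, were below the unstimulated APRIL KO library at 64.9 RPKM, while both WT LPS libraries, at 65.9 and 64.8 RPKM, were above the unstimulated WT library at 59.6 RPKM. The difference was -0.22 (SE 0.16, adjusted p = 0.998).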

How the results depend on the processing

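Under LPS the count of lower members averaged over genotypes was 39 to 44 in the alternatives, and 42 to 43 with 1 library left out (38 to 41 in WT, 34 to 40 in BAFF KO, 40 to 41 in APRIL KO). The count of higher members, 2, was 6 with median ratio scaling and 1 with the lower index column alone, and 1 to 2 with a library left out. By genotype median ratio scaling gave 4 higher in WT, 5 in BAFF KO and 3 in APRIL KO, while no filter or the lower index column alone gave 1 in BAFF KO, and leaving out a library 1 to 2. Median ratio scaling turned round the changes of Tyms (0.040), Pcna (0.21) and Mad2l1 (0.33), and leaving out library 13 that of Mad2l1 (0.11 without it, and -0.42 without library 16).

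For BAFF KO against WT the 2 higher and 2 lower calls were 0 and 0 with no filter, with the lower index column alone and with the replicate block, 1 and 1 with the higher index column alone, and 0 to 2 each with a library left out. The Pcna call between the knockouts was lost (0 higher) with no filter, median ratio scaling, the lower index column alone and the block, and with the higher index column alone, where another member was called higher; the higher calls were 0 to 1 with a library left out, and the pseudocount of 0.1, median ratio scaling and the higher index column each gave 1 lower. Without LPS the 2 lower members of BAFF KO were 1 with median ratio scaling.

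The replicate block ended 5 calls and changed no direction. LPS libraries of different genotypes with the same order deviated with r of -0.18 (BAFF KO and WT), -0.10 (APRIL KO and WT) and 0.12 (BAFF KO and APRIL KO) over 9934 genes. Both values with WT change sign if the WT order is crossed, so they cannot tell whether libraries of different genotypes shared a batch. Crossing the WT order, chosen after seeing this, gave 1 higher member with LPS (1 in BAFF KO), 1 and 1 for BAFF KO against WT and 2 higher for BAFF KO against APRIL KO. The choices of leaving out unstimulated libraries and the 2-fold rule were also added after seeing the data. Depth limits members such as Pole, with 41 reads in all.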
